A study of Ovis aries with 36 samples.

Results

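The genes described here are 42 genes whose products copy DNA and divide the cell. They were chosen by symbol from a list, and every locus of the deposited count files that carries one of these names was used. Of the 42 genes, 39 had a locus in all 3 tissues. CDK1, CCNB1 and MCM2 had none under those names and are not analysed here. All 39 passed the filter on low counts in each tissue and over the 36 libraries. The files hold 21611 gene names that could be joined over the tissues. The counts come from sheep fetuses in late gestation, carried by Polypay ewes bred to a single sire. The dams were limit-fed whole shell corn (CN), limit-fed dried distillers grains (DG), the residue of corn after fermentation, or alfalfa haylage (HY, which the sample labels call Hay). From 26 fetuses of 15 dams, RNA was pooled into 36 libraries, from the longissimus dorsi (a back muscle), the fat under the skin (subcutaneous) and the fat around the kidney (perirenal). Each tissue and diet has 4 pools, 2 of female (F1 and F2) and 2 of male fetuses (M1 and M2). All 3 diets were complete feeds with no unfed or untreated group, and some pools of the same diet share dams, so the pools are not fully independent and the p-values measure the spread between these pools.

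A dividing cell first licenses its replication origins by loading MCM helicases, then copies its DNA with PCNA as the sliding clamp of the polymerases. It then condenses its chromosomes, attaches them through kinetochores to a spindle under the control of the Aurora and Polo kinases, and splits by cytokinesis. Cells that have left the cycle, such as fused muscle fibres and mature adipocytes, largely switch these genes off, and the RNA of MKI67 and TOP2A is widely read as a marker of dividing cells. In a tissue sample, fewer dividing cells and less of each RNA per dividing cell cannot be told apart.

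The libraries held 6705766 to 29625146 counts, and the medians were 20143802 for muscle, 13881270 for subcutaneous fat and 10776612 for perirenal fat. Marker genes were checked against the tissue labels. The 16 measured skeletal muscle fibre markers summed to 168916 to 250585 CPM (counts scaled to the effective library size) in muscle and to 35.7 to 908 CPM in perirenal fat, but to 1262 to 196338 CPM in the subcutaneous pools. Of the 12 subcutaneous pools, 5 exceeded 50000 CPM (CN F2, DG F1, DG F2, DG M2 and HY F2), and the tissue, diet and sex comparisons were also run without them. The 10 adipocyte markers summed to 112 to 249 CPM in muscle, 2681 to 14254 CPM in subcutaneous and 7566 to 19309 CPM in perirenal fat. The 8 leukocyte markers summed to 66.5 to 83.9 CPM in muscle and to 250 to 412 CPM in the fat depots. How far these other cell types carried cell division RNA was not tested.

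The first question was whether the 3 tissues differ in the level of the cell division genes, and levels in the tissue comparisons are in CPM scaled over all 36 libraries. Summed over the 39 genes, the level was 963 to 1274 CPM in the 12 muscle pools (mean 1146 ± 90.1, SD), 770 to 1102 CPM in the subcutaneous pools (920 ± 113) and 784 to 1057 CPM in the perirenal pools (928 ± 80.5). The ranges overlapped between all 3 tissues. Without 3 genes whose locus is merged with a neighbour in a tissue, the levels were closer, at 932 ± 88.9 CPM in muscle, 864 ± 102.5 CPM in subcutaneous and 856 ± 79.0 CPM in perirenal fat. No test was made on a sum over chosen genes. The single genes did not move together: relative to muscle some fell and others rose in the same fat pools.

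**Figure D1:**
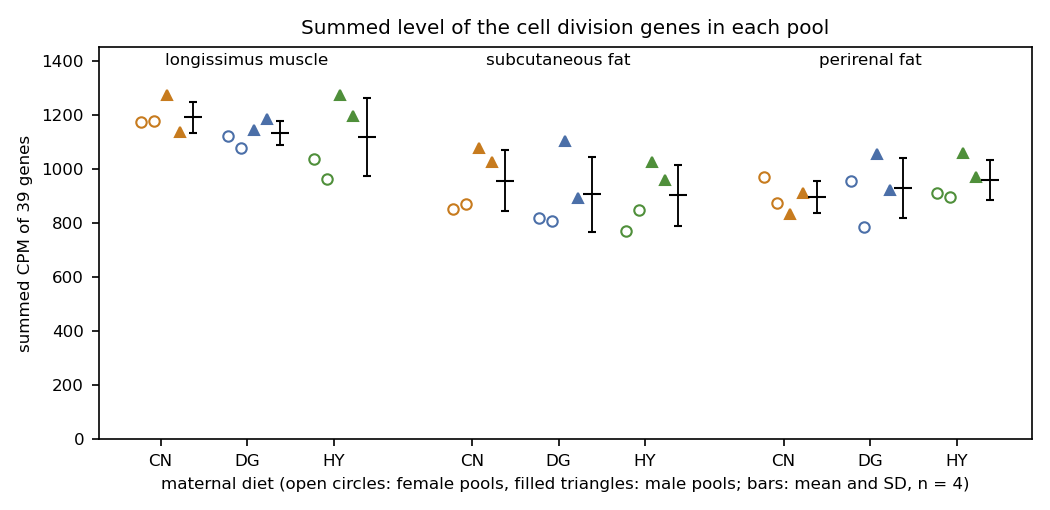
Summed level of the 39 cell division genes in each of the 36 pools, in CPM scaled over all 36 libraries, by tissue and maternal diet. The 12 muscle pools lie between 963 and 1274 CPM and the fat pools between 770 and 1102 CPM, with overlap between diets in every tissue.

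In subcutaneous fat, 4 of the 39 genes were higher than in muscle and 19 were lower at FDR ≤0.05 (edgeR, quasi-likelihood F test), which is 10.3% and 48.7% of the members beside 35.2% and 36.9% of all 13330 names tested. In perirenal fat, 10 were higher and 17 lower than in muscle (25.6% and 43.6%), beside 37.6% and 42.2% of all names. Perirenal fat had 10 genes higher and 4 lower than subcutaneous fat (25.6% and 10.3%), beside 30.9% and 35.9% of all names. Their median log2 fold change was -0.18 for subcutaneous fat minus muscle, -0.13 for perirenal fat minus muscle and 0.10 for perirenal minus subcutaneous fat, where the medians over all names were -0.02, -0.06 and -0.04.

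Few genes differed by at least 2-fold. Against muscle, 2 members were higher and 4 lower in subcutaneous fat under that added rule, beside 14.7% and 18.1% of all names, and 2 were higher and 3 lower in perirenal fat, beside 18.7% and 22.9%. Between the depots none was higher and 1 was lower in perirenal fat, beside 11.9% and 15% of all names. Of the 39 genes, 13 were lower in both depots than in muscle, 4 were higher in both, and 6 passed the threshold in none of the 3 comparisons. These 6 were RRM2 and TYMS, which supply deoxynucleotides, the kinases TTK and MELK, the kinetochore protein NDC80 and the midzone kinesin KIF23.

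**Figure D2:**
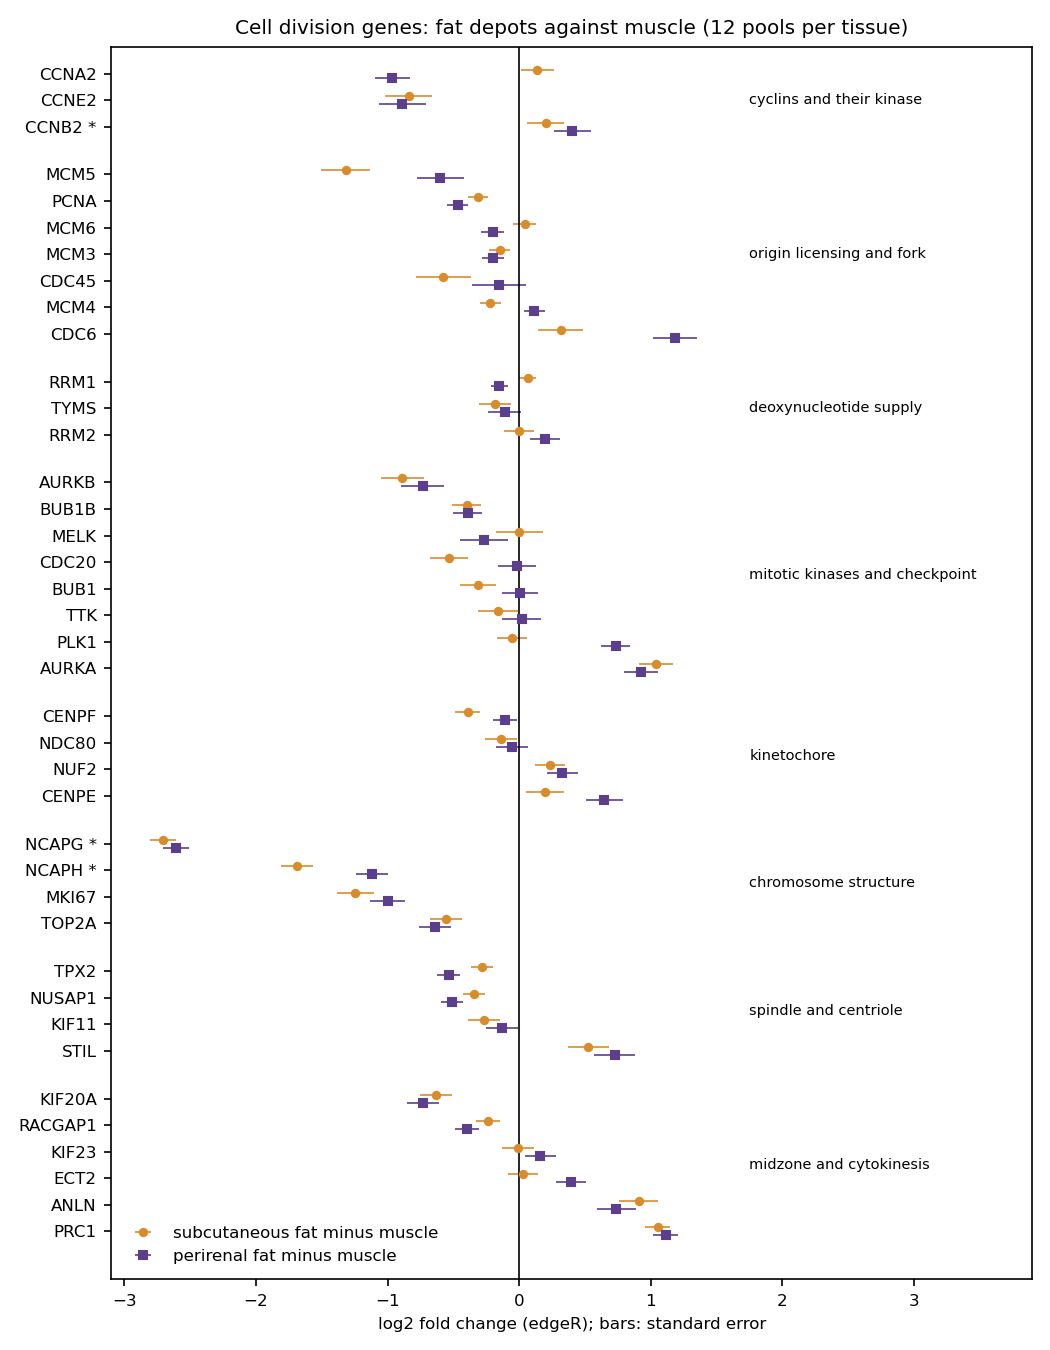
Log2 fold change of each of the 39 genes in subcutaneous fat (circles) and perirenal fat (squares) against muscle, with approximate standard errors, grouped by role. MKI67 and TOP2A lie left of 0 in both depots, AURKA, STIL, PRC1 and ANLN right of 0, and the asterisks mark 3 genes whose locus is merged with another gene in a tissue.

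The chromosome structure genes were the role in which all members were lower in both depots (4 of 4). Of these, NCAPG and NCAPH each have a muscle locus shared with a neighbour. MKI67, the Ki-67 coat protein of mitotic chromosomes, lies on chromosome 22 (46439178 to 46468160 in the muscle files, Oar_v3.1). Its level over the 36 libraries was 28.9 to 58.7 CPM in muscle (median 50.5), 9.88 to 30.5 CPM in subcutaneous fat (median 21.4) and 15.1 to 35.5 CPM in perirenal fat (median 22.3). The lowest muscle pool lay inside the range of each fat depot. MKI67 fell by 1.24 on the log2 scale in subcutaneous fat (SE 0.14, adjusted p = 1.7e-09, edgeR) and by 1 in perirenal fat (SE 0.14, adjusted p = 6.7e-08). TOP2A, the topoisomerase that untangles sister chromatids, had 58.1 to 85.3 CPM in muscle (median 72.8), 24.6 to 66.2 CPM in subcutaneous fat (median 51.1) and 28.1 to 60.0 CPM in perirenal fat (median 46.7). Its ranges overlapped in part, and it fell by 0.56 (SE 0.12) and 0.64 (SE 0.12) on the log2 scale, with adjusted p = 0.00016 and 1.8e-05 by edgeR.

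NCAPG and NCAPH, subunits of the condensin complex, had the lowest log2 fold changes of all members against muscle (-2.71 and -1.69 in subcutaneous fat, -2.61 and -1.12 in perirenal fat) and did not overlap between muscle and either depot. How many of all names do not overlap between tissues was not counted, for these or for the genes below. NCAPG had 91.3 to 161 CPM in muscle and 11.4 to 23.9 CPM in the fat depots. In muscle, however, a second locus named for both DCAF16 and NCAPG carried 1058 to 2262 counts a pool beside 306 to 666 on the locus of NCAPG alone, and the only muscle locus of NCAPH is shared with ITPRIPL1. Both fat depots have loci named for NCAPG or NCAPH alone. On the shared muscle loci the reads of the neighbours cannot be told apart from those of NCAPG and NCAPH. Most of the summed NCAPG counts in muscle came from the shared locus (median 1262 a pool, beside 402 on the locus of NCAPG alone). The log2 fold changes of NCAPG therefore rest largely on the shared locus. In the shallower fat libraries the median NCAPG count was 211.5 (subcutaneous) and 206 (perirenal). CCNB2 shares its perirenal locus with MYO1E. Without these 3 genes, 4 of 36 members were higher and 17 lower in subcutaneous fat than in muscle, and 9 were higher and 15 lower in perirenal fat.

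Of the cyclins, CCNE2, which drives entry into DNA synthesis, was lower in both depots (log2 fold changes -0.84, SE 0.18, and -0.89, SE 0.18, adjusted p = 9.4e-05 and 3.4e-05 by edgeR). CCNA2, the cyclin of DNA synthesis and early mitosis on chromosome 6 (3657736 to 3676840), separated the fat depots. It had 12.9 to 29.6 CPM in subcutaneous fat (median 17.7), 11.6 to 27.2 CPM in muscle (median 14.9) and 5.33 to 12.2 CPM in perirenal fat (median 8.29). Every perirenal pool lay below every subcutaneous pool, and 11.6 to 12.2 CPM was the only stretch shared with muscle. CCNA2 fell by 1.104 on the log2 scale from subcutaneous to perirenal fat (SE 0.13, adjusted p = 1.2e-08, edgeR), the only member past 2-fold between the depots, and by 0.96 from muscle to perirenal fat (SE 0.13, adjusted p = 6.9e-08).

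Of the 7 origin licensing and fork genes, 4 were lower in each depot than in muscle and CDC6 was higher in perirenal fat. MCM5, a subunit of the replicative helicase, had 6.86 to 19.3 CPM in muscle (median 15.3), 1.56 to 9.84 CPM in subcutaneous fat (median 5.19) and 4.79 to 15.8 CPM in perirenal fat (median 8.78). It fell by 1.32 in subcutaneous fat (SE 0.19, adjusted p = 2.3e-07, edgeR) and by 0.60 in perirenal fat (SE 0.18, adjusted p = 0.0037) on the log2 scale. The other measured helicase subunits differed less from muscle, with log2 fold changes between -0.22 and 0.12 for MCM3, MCM4 and MCM6. With library totals alone MCM3 and MCM6 passed the threshold in the opposite direction in perirenal fat (both 0.30, adjusted p = 0.0051 and 0.017, edgeR). PCNA, the sliding clamp, was lower in both depots, with log2 fold changes of -0.31 (SE 0.08) and -0.47 (SE 0.08). CDC6, the factor that helps to load the helicase at origins (chromosome 11, 40114667 to 40125852), went the other way. Its level was 2.66 to 6.43 CPM in muscle (median 2.98), 2.62 to 7.20 CPM in subcutaneous fat (median 4.28) and 4.31 to 10.8 CPM in perirenal fat (median 7.90). In perirenal fat it rose against both muscle (log2 fold change 1.18, SE 0.17, adjusted p = 1.4e-07, edgeR) and subcutaneous fat (0.87, SE 0.17, adjusted p = 3.7e-05). Of the 3 genes of deoxynucleotide supply, 1 passed the threshold. RRM1, the large subunit of ribonucleotide reductase, had a median of 98.4 CPM in muscle, 100.8 CPM in subcutaneous and 90.9 CPM in perirenal fat. It was lower in perirenal fat than in muscle (log2 fold change -0.15, SE 0.06) and than in subcutaneous fat (-0.21, SE 0.06). With library totals alone RRM1 was called higher in perirenal fat than in muscle (0.35, adjusted p = 0.00028, edgeR).

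The mitotic kinases split. AURKA, the Aurora kinase of centrosomes and spindle poles (chromosome 13, 58838844 to 58869295), had 26.6 to 71.7 CPM in muscle (median 39.8), 54.8 to 141 CPM in subcutaneous fat (median 79.0) and 70.8 to 100.1 CPM in perirenal fat (median 79.4). It rose by a log2 fold change of 1.04 in subcutaneous (SE 0.13, adjusted p = 1.8e-08, edgeR) and 0.93 in perirenal fat (SE 0.13, adjusted p = 1e-07). AURKB, the Aurora kinase of centromeres and the midzone, changed in the opposite direction, with log2 fold changes of -0.89 (SE 0.16) and -0.73 (SE 0.16). PLK1, the Polo kinase of mitotic entry (chromosome 24, 21338358 to 21370787), had 8.90 to 17.5 CPM in muscle, 6.995 to 16.2 CPM in subcutaneous fat and 14.6 to 24.9 CPM in perirenal fat. It was higher in perirenal fat than in muscle (0.73, SE 0.11) and than in subcutaneous fat (0.79, SE 0.11), with adjusted p = 4.6e-07 and 3.1e-07 by edgeR. The checkpoint genes BUB1B (-0.40, SE 0.11, and -0.39, SE 0.11) and, in subcutaneous fat, BUB1 (-0.31, SE 0.14) and CDC20 (-0.53, SE 0.14), which activates the anaphase-promoting complex, were lower than in muscle.

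Of the 4 kinetochore genes, 2 were higher in perirenal fat than in muscle, CENPE (0.65, SE 0.14) and NUF2 (0.33, SE 0.12), and none was called lower there. CENPF, a large outer kinetochore protein, was lower in subcutaneous fat (log2 fold change -0.39, SE 0.09). Of the spindle and centriole genes, NUSAP1 and TPX2, which bundle and nucleate spindle microtubules, were lower in both depots, with log2 fold changes between -0.54 and -0.28, while STIL, a centriole duplication factor, was higher (0.53, SE 0.16, and 0.73, SE 0.16). Among the midzone and cytokinesis genes, PRC1, which bundles the microtubules of the central spindle, was the member with the highest log2 fold change in subcutaneous fat. PRC1 (chromosome 18, 20787161 to 20815853) had 8.34 to 19.99 CPM in muscle (median 13.2), 22.0 to 32.9 CPM in subcutaneous fat (median 27.5) and 20.97 to 33.8 CPM in perirenal fat (median 29.4). All fat pools lay above all muscle pools, and the log2 fold changes were 1.06 (SE 0.10, adjusted p = 2.1e-11, edgeR) and 1.11 (SE 0.10, adjusted p = 3.4e-12). ANLN, the anillin of the contractile ring, was also higher in both depots (0.91, SE 0.15, and 0.74, SE 0.15), while the midzone kinesin KIF20A (-0.63, SE 0.12, and -0.73, SE 0.12) and RACGAP1, a component of the central spindle (-0.24, SE 0.09, and -0.40, SE 0.09) were lower.

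These directions depend in part on how the libraries are scaled. With library totals alone, the median of all names moved to 0.21, 0.44 and 0.23 in the 3 comparisons, and the calls among members became 11 higher and 8 lower in subcutaneous fat against muscle, 23 higher and 4 lower in perirenal fat against muscle, and 24 higher and 1 lower between the depots. Upper-quartile scaling gave 13 higher and 14 lower for perirenal fat against muscle and 14 higher and 1 lower between the depots. Relative to the median of all names, the members' median was -0.17, -0.08 and 0.13 with TMM and -0.15, -0.07 and 0.12 with library totals. Under all 4 other scalings tried, AURKA, PRC1, STIL and ANLN were called higher and MKI67, NCAPG and NCAPH lower in both depots than in muscle. The calls of NCAPG and NCAPH include muscle loci shared with neighbours, which scaling does not correct. AURKB, CCNE2, KIF20A, MCM5 and TOP2A kept their lower call under all 4 in subcutaneous fat only, and CCNA2 did so in perirenal fat. CCNB2 (on its shared perirenal locus), CDC6, CENPE, ECT2, NUF2 and PLK1 kept a higher call in perirenal fat only. In perirenal fat against muscle, 10 members thus stayed higher and 4 lower. Between the depots 10 stayed higher and 1, CCNA2, lower in perirenal fat. How many of all names kept their call under all 4 was not counted. Leaving out the 5 subcutaneous pools rich in muscle markers, a choice made after the data were seen, gave 9 higher and 13 lower members in subcutaneous fat, a median of -0.09 against muscle, and 8 higher and 4 lower between the depots with a median of 0.03. Relative to all names the members' medians were then -0.04, -0.08 and -0.01. Calls against muscle lost in that way were MCM4 (-0.11), CDC45 (-0.57), BUB1 (-0.06), KIF11 (-0.10), TPX2 (-0.14) and RACGAP1 (-0.12) in subcutaneous fat, and MCM3 (-0.14), MCM6 (-0.14) and RRM1 (-0.09) in perirenal fat. Between the depots RRM1 (-0.18), BUB1 (0.13) and CENPE (0.26) lost theirs.

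The other cell cycle genes of a second list (109 genes, 99 of them tested over the 3 tissues) were also divided. Against muscle, 20 were higher and 46 lower in subcutaneous fat, and 33 were higher and 47 lower in perirenal fat, beside the shares of all names given above (35.2% and 36.9%, 37.6% and 42.2%). The 35 other licensing and fork genes were divided, with 13 higher and 10 lower in subcutaneous and 16 higher and 11 lower in perirenal fat. The retinoblastoma family and E2F genes were lower for 9 of 12 and higher for 0 in subcutaneous fat. In perirenal fat 10 of 12 were lower and 2 higher. All 12 passed the count filter within muscle, but 9 did so within each fat depot. A gene that passes through muscle alone can hardly be called other than lower in fat, so these counts are partly set by the filter. FOXM1, a transcription activator of mitotic genes, had 3.81 to 6.92 CPM in muscle, 0.346 to 1.32 CPM in subcutaneous fat and 0.798 to 2.70 CPM in perirenal fat. No fat pool reached the muscle range, and FOXM1 was lower with log2 fold changes of -2.43 (SE 0.16, adjusted p = 1.1e-14, edgeR) and -1.52 (SE 0.15, adjusted p = 1.2e-10). MYBL2, an activator of genes of late DNA synthesis, was lower in subcutaneous (-0.65, SE 0.13) and higher in perirenal fat (0.32, SE 0.13). E2F1, read in all tissues from a locus shared with NECAB3 and PXMP4, had log2 fold changes of -0.67 (SE 0.12) and -0.70 (SE 0.12).

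Of the 7 kinase inhibitors listed, 4 were tested over the 3 tissues. CDKN2C, an inhibitor of the G1 kinases, was lower in both depots (log2 fold changes -0.68, SE 0.12, and -1.21, SE 0.12). CDKN1B, which holds back the G1 and S phase cyclin kinases, was higher in subcutaneous fat (0.25, SE 0.08) and lower in perirenal than in subcutaneous fat (-0.41, SE 0.08). CDKN1A, a p53 target, had log2 fold changes of 0.26 (SE 0.21) and -0.03 (SE 0.21) against muscle, neither past the threshold. CDKN2D had 8.19 to 26.4 CPM in muscle and 0 to 1.52 CPM in subcutaneous fat (log2 fold change -4.50, SE 0.28), while its perirenal locus is shared with KRI1 and gives no clean value. Its subcutaneous locus (chromosome 5, 12754968 to 12756420) is also shorter than the muscle locus (12754315 to 12756420). How far the separate assemblies set the low subcutaneous value was not tested.

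The second question was whether the diet of the dam changed these genes. Across 9 diet comparisons, 3 in each tissue, 2 calls at FDR ≤0.05 were made among 351 member values, both in muscle between HY and CN: MCM5 was higher and AURKA lower with HY. In that comparison 2.95% of all 18155 names were called. MCM5 read 8.39, 7.23, 5.17 and 7.12 CPM (within-tissue scale) in CN pools F1, F2, M1 and M2, 14.2, 8.11, 13.7 and 14.6 CPM in the HY pools, and 10.7, 12.0, 14.2 and 13.1 CPM in the DG pools. The HY and CN pools overlapped through HY F2 alone, and all DG pools lay above all CN pools. The means were 12.7 ± 3.05 in HY and 6.97 ± 1.33 in CN (SD, n = 4), with a log2 fold change of 0.85 (SE 0.20, adjusted p = 0.041, edgeR). For DG minus CN it was 0.84 (SE 0.20, adjusted p = 0.064). AURKA read 43.1, 32.6, 41.6 and 55.5 CPM in CN, 27.7, 20.1, 30.2 and 29.8 CPM in HY, and 23.0, 31.4, 30.4 and 30.1 CPM in DG. Every HY and every DG pool lay below every CN pool. Its log2 fold change was -0.68 for HY minus CN (SE 0.17, adjusted p = 0.049, edgeR) and -0.59 for DG minus CN (SE 0.17, adjusted p = 0.12).

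**Figure D3:**
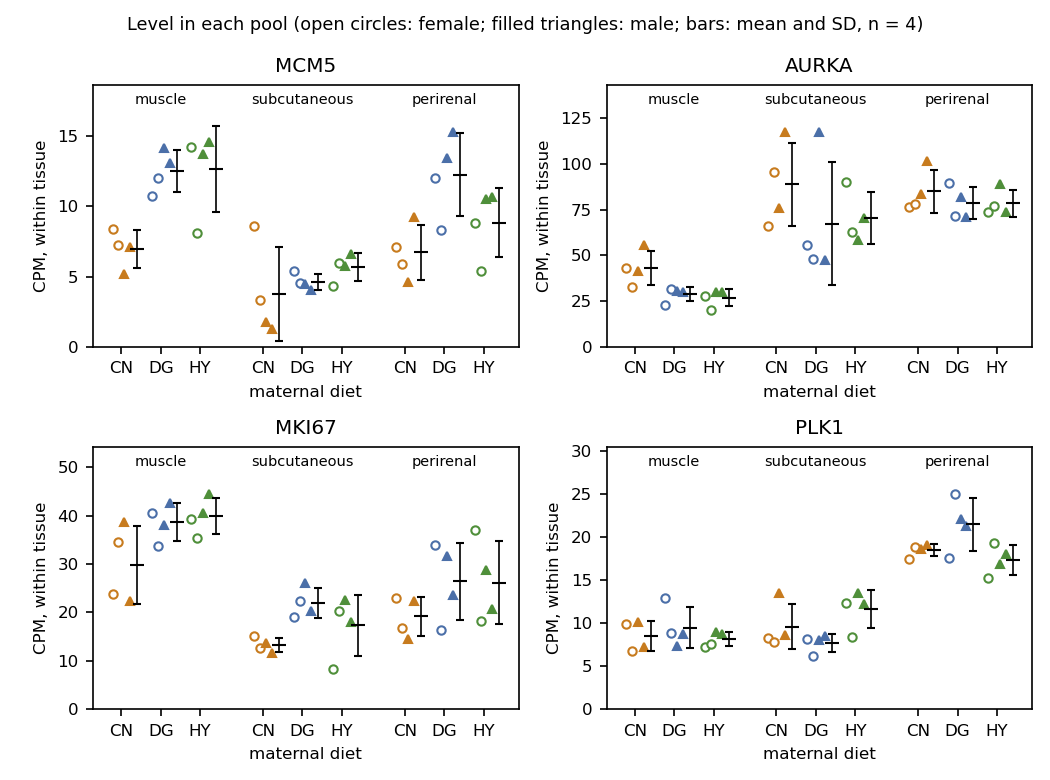
Level of MCM5, AURKA, MKI67 and PLK1 in each pool, in CPM scaled within each tissue, by tissue and diet, with the mean and SD of 4 pools. In muscle, MCM5 is at 5.17 to 8.39 CPM in CN pools and at 10.7 to 14.2 CPM in DG pools, and AURKA is at 32.6 to 55.5 CPM in CN pools and at 20.1 to 31.4 CPM in all others.

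Between DG and CN in muscle no member passed FDR ≤0.05 in edgeR's quasi-likelihood F test, beside 1.02% of all names, and 4 had an unadjusted p under 0.05, beside 16.3% of all names. By DESeq2 and by edgeR's likelihood-ratio test 3 passed, namely MCM5, PRC1 and AURKA, beside 3.81% and 3.38% of all names. The same 3 passed FDR ≤0.20, beside 7.01% of all names, and in HY minus CN MCM5, AURKA and MKI67 did, beside 15.9% of all names. PRC1 had 12.2 ± 2.01 CPM in DG and 8.06 ± 1.58 CPM in CN pools (log2 fold change 0.60, SE 0.17, adjusted p = 0.10, edgeR). MKI67 had 39.95 ± 3.75 CPM in HY and 29.8 ± 8.02 CPM in CN pools (0.42, SE 0.16, adjusted p = 0.16, edgeR). The pools of DG and CN did not overlap for 6 members and those of HY and CN for 2, beside 8.69% and 12.5% of all names. The 2 comparisons share the CN pools. Their medians over the 39 members were -0.13 and -0.07, beside -0.003 and -0.02 over all names. Leaving out single pools moved them from -0.15 (without DG M2) to -0.06 (without CN M1) and from -0.21 (without HY M1) to -0.02 (without HY F2). The DG muscle libraries were also the deepest, with 20370147 to 29625146 counts against 13749762 to 19387181 in CN. With all libraries thinned to one depth, MCM5 and AURKA had log2 fold changes of 0.90 and -0.74 for HY minus CN. Both calls were lost without any 1 of CN F1, CN M1, CN M2, HY F1, HY M1 or HY M2 (adjusted p = 0.057 to 0.14 for MCM5 and 0.062 to 0.16 for AURKA, edgeR). AURKA was also lost without HY F2 (adjusted p = 0.15). Both were lost with the replicate numbers as a block (adjusted p = 0.073 for MCM5 and 0.059 for AURKA, edgeR).

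Between HY and DG no member passed in muscle by edgeR, by its likelihood-ratio test or by DESeq2, where 0% of all names were called and 0 members had an unadjusted p under 0.05, beside 2.18% of all names. CDC6 had the smallest p of the members there (3.08 ± 1.31 CPM in HY, 2.23 ± 0.24 CPM in DG, adjusted p = 0.9998, edgeR).

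In subcutaneous fat no member passed FDR ≤0.05 in any diet comparison by any of the 3 tools, and 0% of names did so by the quasi-likelihood test, where DESeq2 called 267, 0 and 905 names (DG minus CN, HY minus CN, HY minus DG). Unadjusted p-values under 0.05 were given by 2 members for DG minus CN, 2 for HY minus CN and 3 for HY minus DG. Over all names they were given by 15.0%, 4.37% and 18.2%. MKI67 had the smallest p for DG minus CN. It read 19.1, 22.3, 26.2 and 20.3 CPM in the DG pools and 15.0, 12.6, 13.7 and 11.5 CPM in the CN pools, without overlap (log2 fold change 0.73, SE 0.26, adjusted p = 0.27, edgeR). Pools of DG and CN did not overlap for 2 of 39 members, MKI67 and TOP2A (5.13%), beside 6.8% of all names. CCNA2 was first for HY minus CN, with 13.4 ± 2.49 CPM in HY and 18.8 ± 4.05 CPM in CN (-0.49, SE 0.19, adjusted p = 0.94). At FDR ≤0.20, PLK1 was called between HY and DG, beside 10.9% of all names. It read 12.3, 8.42, 13.5 and 12.2 CPM in the HY pools and 8.09, 6.14, 7.97 and 8.43 CPM in the DG pools, where HY F2 lay inside the DG range (log2 fold change 0.60, SE 0.23, adjusted p = 0.198). The muscle fibre markers differed in the same direction as the DG label in this depot, with medians of 106936 CPM in DG, 23664 CPM in CN and 15638 CPM in HY pools, and their part in these values was not tested beyond leaving those pools out. Without the 5 muscle-rich pools DG M1 is the single DG pool left, and on that pool rest the members' medians of 0.15 for DG minus CN and -0.17 for HY minus DG, against -0.06 and -0.001 with all pools.

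In perirenal fat 0% of names and no member passed FDR ≤0.05 in any diet comparison, and 0 members passed by DESeq2 or by the likelihood-ratio test. In each comparison 1 member had an unadjusted p under 0.05, beside 9.85%, 2.34% and 9.96% of all names (DG minus CN, HY minus CN, HY minus DG). At FDR ≤0.20, 1.65% of names but no member passed for DG minus CN. MCM5 had the smallest p there. It read 12.0, 8.33, 13.4 and 15.3 CPM in DG and 7.08, 5.93, 4.64 and 9.23 CPM in CN pools, with DG F2 inside the CN range (log2 fold change 0.87, SE 0.26, adjusted p = 0.24, edgeR). MCM5 thus read lower in CN than in DG pools in muscle and in perirenal fat, which come from the same fetuses, while in subcutaneous fat its CN pools spread from 1.30 to 8.59 CPM (log2 fold change 0.27, SE 0.46). CENPF led HY minus CN (36.8 ± 4.37 and 27.5 ± 5.45 CPM, log2 fold change 0.42, SE 0.15, adjusted p = 0.9995), and 33 of 39 members had a positive sign there, with a median of 0.12, beside 51.8% and a median of 0.009 over all names. Without single pools this median lay between 0.06 (without HY M1) and 0.21 (without CN F1). The median deviation of the members in single pools nevertheless ran from -0.17 to 0.14 in CN and from -0.12 to 0.30 in HY.

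**Figure D4:**
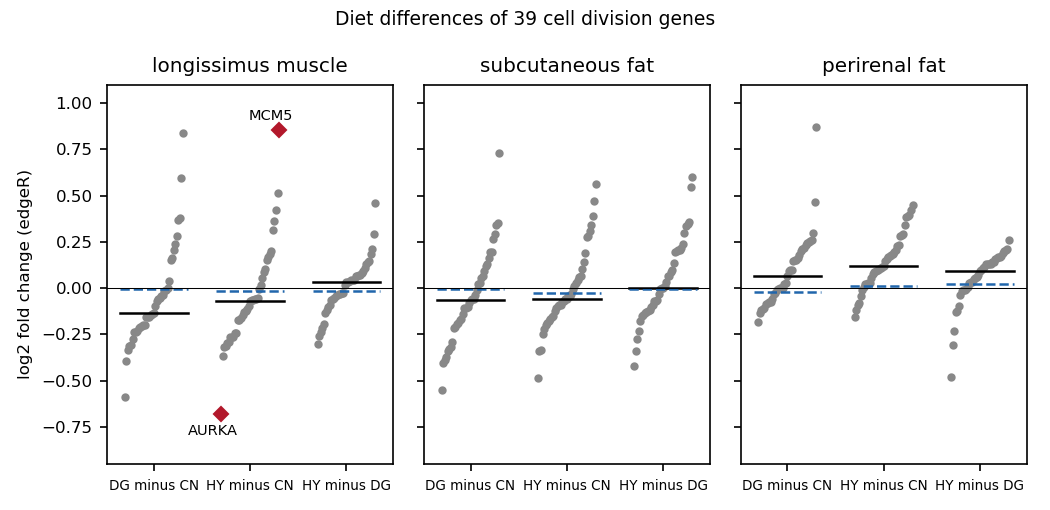
Log2 fold changes of the 39 genes in the 9 diet comparisons, ordered by size within each comparison, with the median of the members (black line) and of all names tested (dashed line). Only MCM5 (0.85) and AURKA (-0.68) for HY minus CN in muscle pass FDR ≤0.05 (diamonds).

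Diet differences were then compared between tissues in 1 fit of all 36 libraries. Of the 9 differences tested, 1 gave a member past FDR ≤0.05, namely PLK1 for HY minus DG between the fat depots. The effect in perirenal fat was lower than that in subcutaneous fat by a log2 difference of -0.95 (SE 0.27, adjusted p = 0.034, edgeR), where 7.09% of all names were called. PLK1 read 15.2, 19.3, 16.9 and 18.0 CPM in the perirenal HY pools and 17.6, 25.0, 22.1 and 21.2 CPM in the perirenal DG pools. This was the opposite order to subcutaneous fat. Without the muscle-rich pools, 1 DG and 3 HY pools are left in that depot, so diet and muscle content cannot be told apart there. Their parts in the PLK1 difference were not tested. The study's pool list names no tissue and is taken here to hold for all 3. With the pool as a replicate block on that reading, PLK1 (-0.95, adjusted p = 0.047, edgeR) and MCM4 (-0.53, adjusted p = 0.041) passed.

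Of the other cell cycle genes, 1 passed FDR ≤0.05 for a diet, CCND3 in muscle for HY minus CN (log2 fold change 0.69, SE 0.16, adjusted p = 0.042, edgeR), a D cyclin read there from a locus shared with MED20, beside 2.95% of all names. None of the kinase inhibitors, FOXM1, MYBL2 or E2F1 passed in any diet comparison. For HY minus DG between the fat depots, 6 of 99 other cell cycle genes passed, 3 in each direction, beside 7.09% of all names.

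The pools also differ by the sex of the fetuses, and levels here are again on the within-tissue scale. With diet in the model, no member passed FDR ≤0.05 between male and female pools by edgeR, beside 0% of names in muscle and in subcutaneous fat and 0.0223% in perirenal fat. The signs were nevertheless mostly positive. Male pools were higher for 33 of 39 members in muscle (median log2 fold change 0.21), 35 of 39 in subcutaneous fat (0.32) and 31 of 39 in perirenal fat (0.09), where the medians of all names lay between -0.008 and -0.007. Unadjusted p-values under 0.05 were given by 11 members in muscle (28.2%, all names 3.85%), 19 in subcutaneous fat (48.7%, all names 14.8%) and 1 in perirenal fat (2.56%, all names 3.26%). The 11 in muscle became 2 without the pool HY F2, and the perirenal median became 0.04 without DG F2. DESeq2 called 0 members in muscle and in perirenal fat.

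In subcutaneous fat the male and female pools did not overlap for 7 members, all higher in male pools, which is 17.9% of the members beside 0.237% of all names. They were RRM2, TTK, BUB1B, NDC80, NCAPG, KIF11 and STIL. STIL had 3.44 to 5.25 CPM in the 6 female pools (median 4.06) and 6.52 to 9.18 CPM in the 6 male pools (median 7.87; log2 fold change 0.88, SE 0.15, adjusted p = 0.28, edgeR). KIF11, the kinesin that pushes spindle poles apart, had 12.2 to 19.3 CPM in female (median 17.0) and 22.1 to 28.1 CPM in male pools (median 24.8; log2 fold change 0.61, SE 0.14, adjusted p = 0.28). By DESeq2, KIF11, RRM2, STIL and TTK passed FDR ≤0.05, beside 0.642% of all names. MCM5 was the member with the lowest value (-0.57, SE 0.37). The summed member level was 646 to 742 CPM in the female and 772 to 948 CPM in the male subcutaneous pools on the within-tissue scale, without overlap.

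The subcutaneous sexes differ in muscle markers too, with medians of 93595 CPM in female and 11501 CPM in male pools. Depth differed as well. Male pools held 6705766 (CN M2) to 16439117 counts (DG M2), and female pools 9658737 (HY F1) to 20272024 (DG F1). Loci without a name took 4.84% to 14.8% of counts in male and 4.64% to 8.92% in female pools. The part of depth in the sex difference was not tested. The summed member level is given here with the muscle marker level in parentheses, both in CPM. It was 948 (1410.5) in DG M1, 878 (4678) in HY M1 and 900 (5985) in CN M1. It was 852 (17018) in CN M2, 822 (26598) in HY M2 and 772 (122336) in DG M2, which was above every female pool. HY F1 was lowest at 646 (1262), and the other female pools had 710 to 742 (30310 to 196338). The part of muscle content in the sex difference was not tested beyond a marker covariate and leaving out muscle-rich pools. With the marker level as a covariate, 35 of 39 members were higher in male pools with a median of 0.35, and 17 had an unadjusted p under 0.05. Without the 5 muscle-rich pools 32 of 39 were higher with a median of 0.38, and 9 had an unadjusted p under 0.05, but only 2 female pools (CN F1 and HY F1, none of DG) were then left against 5 male pools. In muscle, where every pool is rich in these markers, the female and male summed levels were 729 to 894 and 871 to 967 CPM and overlapped.

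**Figure D5:**
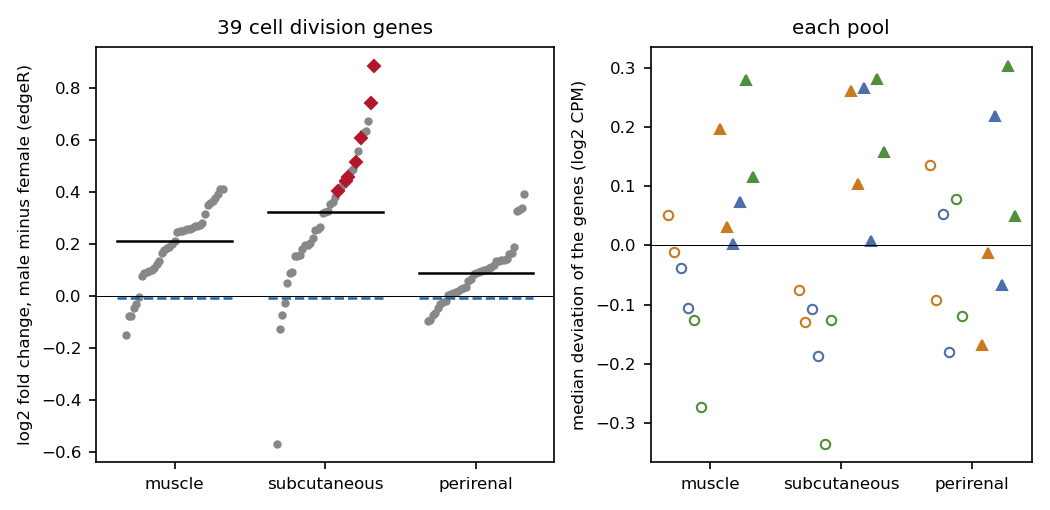
Left, log2 fold changes of the 39 genes between male and female pools in each tissue, with the median of the members (black) and of all names (dashed) and the 7 genes without overlap (diamonds). Right, the median deviation of the members from their tissue mean in each pool, in log2 CPM (open circles female, triangles male, coloured by diet); in subcutaneous fat all 6 male pools lie above all 6 female pools.

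Across the 12 pools of a tissue the members varied together. After the diet means were removed, the mean correlation between pairs of members was 0.33 in muscle, 0.42 in subcutaneous and 0.31 in perirenal fat, beside 0.0009, 0.002 and 0.002 over all pairs of names. The pools and their sex, depth and tissue mixture are shared by all genes, so this is a description. KIF11 (muscle, mean correlation with the other members 0.53), NCAPG (subcutaneous fat, 0.64) and CCNB2 (perirenal fat, 0.52) were closest to the others. NCAPH (-0.28 in muscle), MCM5 (-0.12 in subcutaneous fat) and PLK1 (-0.29 in perirenal fat) were farthest from them. NCAPH in muscle and CCNB2 in perirenal fat are read from a locus shared with another gene.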

How the data were processed

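The authors deposited raw read counts per locus, 1 file for each library, made without normalization. The submitters' processing notes name TopHat2 2.0.4, Cufflinks 2.1.1, HTSeq and the build Oar_v3.1, and the strand setting of the counting is not given in the sources used here. Loci were assembled separately in each tissue, the position given for a locus can cover neighbouring loci, and 3.56% to 14.8% of counts fell on loci without a name. Loci of the same name were summed. No sequence tables were at hand, so no sequence is shown.

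Names with low counts were removed with edgeR 4.0.16 (filterByExpr, minimum count 10, minimum total 15), and counts were scaled by TMM. Diets were compared in all 12 pools of a tissue, sexes with diet in the model, and tissues and differences between tissues in all 36 libraries, by the quasi-likelihood test with Benjamini-Hochberg adjustment over all names. CPM are counts scaled to the TMM effective library size, within a tissue for diet and sex and over 36 libraries for tissues. Standard errors were derived from the F statistic of each log2 fold change and are approximate. The per-pool median deviation uses log2(CPM + 0.5). Alternatives included DESeq2 1.42.0. The fits were tested on simulated data.

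Members, lists and tests were chosen with earlier results of these data known. Named in full are the member of highest level in each role, MKI67, TOP2A, the extreme members of each tissue comparison, those past the threshold in a diet, sex or interaction test, and the smallest p of each diet comparison. Others are given by counts and examples, and the members without overlap between sexes were named after their values were seen. The 54 pairs of pools of one group differed by 9.84 to 286.6 times the sampling noise (chi-square per degree of freedom). The study's pool list names no tissue and is taken here to hold for all 3. On that reading the same pools across tissues come from the same fetuses. Their deviations correlated with a mean of 0.08, 0.12 and 0.04 for the 3 pairs of tissues, against -0.03, -0.04 and -0.01 for different pools. The main tissue fit did not pair them. With the pool as a replicate block, 5 members were higher and 19 lower in subcutaneous fat than in muscle. Perirenal fat then had 10 higher and 17 lower than muscle, and 11 higher and 4 lower than subcutaneous fat. Of all 13330 names, 9601, 10691 and 8916 were called in these 3 comparisons.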

Additional observations from a re-analysis of the deposited data

Results flagged for a closer look

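In groups of 4 pools, 7 of 135 sets of values looked at (5.19%) held a pool far from the other 3, where chance gives about 1 in 20. Of the 7, 5 were muscle pools, and 3 of these were the pool DG F1. In that pool CCNA2 read 19.97 CPM (others 10.4 to 11.4), NCAPG 118 CPM (others 77.5 to 84.1) and AURKA 23.0 CPM (others 30.1 to 31.4). In muscle, RACGAP1 also read 30 CPM in CN M1 (others 26.6 to 26.9) and MCM5 8.11 CPM in HY F2 (others 13.7 to 14.6). In subcutaneous fat, PLK1 read 13.5 CPM in CN M1 (others 7.85 to 8.65) and AURKA 117 CPM in DG M1 (others 47.4 to 55.8). DG M1 had 1410.5 CPM of muscle fibre markers, the fewest of the 4 DG pools, of which the others had 91536 to 196338 CPM.

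The HY minus DG difference of PLK1 differed between the fat depots, with a log2 difference of -0.95 (perirenal minus subcutaneous), by the interaction test described above. Diet and muscle content cannot be told apart in the subcutaneous pools of that test.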

How the results depend on the processing

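Of the counts of calls and medians over members under other settings, 648 were within 1.5 times the reported count or moved by less than the SD between pools, and 32 were not. That SD was 0.16 in muscle, 0.22 in subcutaneous and 0.16 in perirenal fat, and 0.19 over the 36 libraries. It exceeds the size of every diet median over members, so for these even a changed sign can count as unmoved. Among 335 medians, 25 had the other sign, 22 of them in diet comparisons. In muscle, 3 members instead of 0 passed for DG minus CN at FDR 0.20, by the likelihood-ratio test and by DESeq2. For HY minus CN, 1 instead of 2 passed without the filter on low counts, with sex as a covariate or with loci kept apart, 0 passed with the replicate block or with only the 8 pools compared, and leaving out single pools gave 0 to 2. In subcutaneous fat, 1 member passed for HY minus DG at FDR 0.20, and 4 passed between the sexes by DESeq2. The 2-fold rule left 6, 5 and 1 of the 23, 27 and 14 tissue calls. With pools of a single diet (CN, DG, HY) the subcutaneous calls against muscle were 14, 11 and 11, the calls between the depots 4, 9 and 3, and the perirenal calls against muscle 15 with HY pools, where fewer pools were compared. All names tested were then 12594, 12893 and 12620. Of these, 7041, 5541 and 6875 were called in subcutaneous fat against muscle and 5436, 7301 and 3218 between the depots. In perirenal fat against muscle 8359 were called with HY pools. With library totals alone the medians over members became 0.0548, 0.37 and 0.35, and 25 members were called between the depots, beside 8937 of 13330 names. Under that scaling the log2 fold change turned positive for MCM4 (0.0272) and RACGAP1 (0.00803) in subcutaneous fat, for MCM3 (0.30), MCM6 (0.30), PCNA (0.03657), RRM1 (0.35), BUB1B (0.11) and RACGAP1 (0.10) in perirenal fat, and between the depots for MCM6 (0.00158) and RRM1 (0.04611), of which MCM3, MCM6 and RRM1 in perirenal fat against muscle passed the threshold in that direction. With HY pools only, RRM1 (0.0223) and TPX2 (0.01997) turned positive between the depots. The causes were not tested. With the pool as a replicate block, 2 members instead of 1 passed for diet effects that differ between tissues. Within a tissue, same-numbered pools of different diets hold different fetuses of the same sex. Their mean correlation was -0.05 in muscle, 0.21 in subcutaneous and 0.05 in perirenal fat (12 pairs each). For other numbers it was 0.02, -0.08 and -0.02 (36 pairs). In subcutaneous fat same-numbered pools were thus more alike on average, with single pairs from -0.46 to 0.69. The main diet fits did not pair them. Leaving out the muscle-rich pools, the marker covariate and leaving out merged genes were chosen after seeing the data. CDC6, with 33 to 94 counts in a muscle library, had a standard error of 0.28 for HY minus CN there, which limits what could be detected.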
